A study of Mus musculus with 12 samples.

Results

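The 3 mouse genes Myt1l, Myt1 and St18 encode the myelin transcription factor 1 family of zinc finger proteins. They were taken by symbol from the 55336 genes counted in single nuclei of the cerebral cortex at postnatal day 21. The 12 mice were 6 wild-type (WT) and 6 heterozygous (Het) animals from 4 litters of the MYT1L S710fsX line on a C57BL/6 background, generally littermates, with 3 males and 3 females of each genotype. Het mice carry 1 germline copy of a Myt1l frameshift allele in every cell, and no homozygous mutants were included. Pups of both genotypes had received AAV9 vectors into the ventricles around birth, 1 carrying the hyPB transposase and 1 the H2b-tdT-SRT reporter transposon, so no group was free of virus. Nuclei of each animal were barcoded in their own wells and then pooled with those of the other animals before the libraries were made. Each matrix holds the nuclei of 1 animal. Its values are counts of unique molecular identifiers (UMIs), each standing for 1 captured RNA molecule.

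Proteins of this family bind DNA through clusters of zinc fingers held by cysteine and histidine residues, and recruit corepressors with histone deacetylases. Myt1l is known as a factor of postmitotic neurons that keeps non-neuronal programmes off, and mutations in the human gene cause a neurodevelopmental syndrome. Myt1 is known from oligodendrocyte progenitor cells (OPCs) and neural progenitors. St18, also called Myt3, is the remaining paralog. The data were asked where each gene was expressed and whether, in Het animals, the level of either paralog moved with the loss of 1 intact Myt1l copy.

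Myt1l (ENSMUSG00000061911.15) lies on the plus strand of mm10 at chr12:29528384-29923213, Myt1 (ENSMUSG00000010505.16) at chr2:181763332-181827797 and St18 (ENSMUSG00000033740.17) at chr1:6487231-6860940, both also on the plus strand. The longest coding transcripts hold 1187, 1127 and 1045 codons, and a search of them for the spacing of the finger residues found 6 fingers in Myt1l, 7 in Myt1 and 6 in St18. The position of the mutant allele is shown first, because it bears on what a count of Myt1l can and cannot say. The reference sequence around serine codon 710, in capitals, is at chr12:29849310-29849366 inside exon 15 of 25 of Myt1l, with 3 fingers encoded before it and 3 after it.
Myt1l codon 710: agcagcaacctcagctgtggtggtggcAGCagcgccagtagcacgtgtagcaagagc
A frameshift there leaves the gene's transcription start and most of its length in place, and counts per gene do not separate the 2 alleles. Whether the allele changes the amount of transcript does not follow from its position. The level of Myt1l was not used to check the genotype labels.

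The finger that shares the most bases among the 3 genes is shown next, since it is what makes them a family. Capitals mark the codons of the cysteines and histidines that the search required, and other histidine codons are in lower case. Each stretch lies within 1 coding exon, at chr12:29832320-29832394 for finger 2 of Myt1l, chr2:181801049-181801123 for finger 2 of Myt1 and chr1:6807575-6807649 for finger 1 of St18.
Myt1l finger 2: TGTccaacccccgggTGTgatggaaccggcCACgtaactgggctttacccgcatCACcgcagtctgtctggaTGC
Myt1 finger 2: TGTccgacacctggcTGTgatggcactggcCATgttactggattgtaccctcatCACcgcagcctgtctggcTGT
St18 finger 1: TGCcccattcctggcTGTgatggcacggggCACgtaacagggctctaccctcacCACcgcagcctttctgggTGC
Myt1l and Myt1 shared 60 of these 75 bases, and St18 shared 59 with each of the other two.

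The deposited matrices held 78743 barcodes, none shared between animals, of which 34862 lay within the study's limits on UMIs, genes and mitochondrial share. After removal of likely doublets 33118 nuclei were analysed, 1551 to 4412 per animal with a median of 2976 to 3401 UMIs per nucleus. Nuclei were assigned to classes by their marker UMIs, the class names carry "-like" because no annotation was used, and 17 classes had enough nuclei to compare, 11 neuronal and 6 non-neuronal. Another 10105 nuclei (30.5%) met no class rule. Each named class led with more of its own markers than of any other class, but these markers set the classes, so this is no independent check. Levels below are CPM, the UMIs of the gene per 1000000 UMIs of the class in 1 animal. The family itself gave 107979 UMIs of Myt1l, 33767 of St18 and 3139 of Myt1 over the 34862 barcodes within the limits, before doublet removal.

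The 3 genes marked different cells. Myt1l was high in every neuronal class, Myt1 was highest in OPC-like nuclei, and St18 was highest in oligodendrocyte-like nuclei, where it was present in nearly every nucleus. Myt1l reached 1046 ± 97.5 CPM (SD, n = 12 animals) in all excitatory neuron-like nuclei together and 858 ± 103 CPM in all inhibitory neuron-like nuclei, against 27.8 ± 19.7 CPM in oligodendrocyte-like nuclei. Myt1 reached 360 ± 122 CPM in OPC-like nuclei, and St18 6562 ± 298 CPM in oligodendrocyte-like nuclei. Without upper limits on UMIs and genes per nucleus, Myt1l stood at 173 CPM in oligodendrocyte-like nuclei and Myt1 at 130 CPM in OPC-like nuclei, and without doublet removal Myt1l stood at 104 CPM in oligodendrocyte-like nuclei. Levels are compared here for 1 gene across classes and not between genes.

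**Figure D1:**
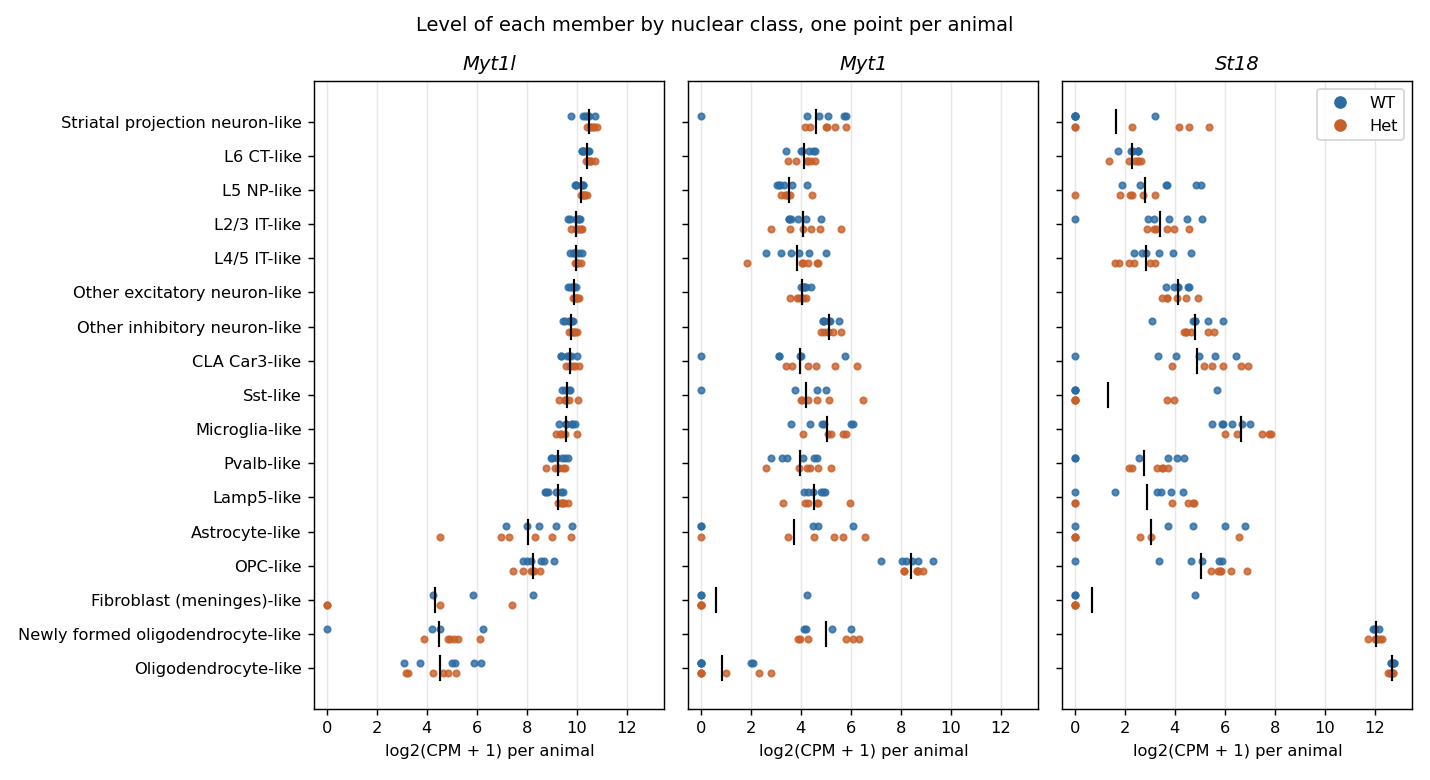
Level of Myt1l, Myt1 and St18 in each of the 17 classes (log2(CPM + 1) of the class sum, 1 point per animal, bar at the mean over animals). Myt1l is high across the neuronal classes, Myt1 stands out in OPC-like nuclei and St18 in newly formed oligodendrocyte-like and oligodendrocyte-like nuclei, where the lowest animal lies at 3392 CPM.

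Among neurons Myt1l was highest in striatal projection neuron-like nuclei (1438 ± 250 CPM, range 868 to 1794) and in layer 6 corticothalamic (L6 CT)-like nuclei (1379 ± 152 CPM, range 1175 to 1680). The 460 striatal-like nuclei, a cell type from below the cortex, came from all 12 animals. These neighbours in the order did not differ beyond their spread (adjusted p = 0.741, exact sign-flip permutation test within animals, two-sided, adjusted over 16 neighbours). L6 CT-like nuclei exceeded layer 5 near-projecting (L5 NP)-like nuclei, at 1169 ± 118 CPM, in 12 of 12 animals (adjusted p = 0.00781, same exact test). L5 NP-like nuclei in turn exceeded layer 2/3 intratelencephalic (L2/3 IT)-like nuclei, at 1018 ± 124 CPM (adjusted p = 0.0104, exact test). The L2/3 IT-like and L4/5 IT-like levels, 1018 and 1015 CPM, could not be separated (adjusted p = 0.999, exact test).

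The lower neuronal levels belonged to interneuron classes. Parvalbumin (Pvalb)-like nuclei held 621 ± 109 CPM of Myt1l and Lamp5-like nuclei 614 ± 118 CPM, a pair that did not differ beyond its spread (adjusted p = 0.884, exact test), while Sst-like nuclei held 782 ± 116 CPM (n = 10). Claustrum-type Car3-like nuclei held 853 ± 135 CPM, and excitatory and inhibitory nuclei with no finer class 949 ± 79.9 and 878 ± 93.3 CPM. Over all nuclei of each kind, excitatory exceeded inhibitory by 0.29 ± 0.14 on the log2(CPM + 1) scale (SD of the differences), in 12 of 12 animals (adjusted p = 0.00134, exact sign-flip test, 11 contrasts chosen after the levels were seen). In all, 7 of the 16 neighbouring pairs in the Myt1l order differed past an adjusted p of 0.05.

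Neuronal classes too small to test by animal gave pooled levels in the same span. Vip-like nuclei (103) held 1008 CPM, Sncg-like nuclei (53) 1001 CPM and layer 6b-like nuclei (33) 1348 CPM (95% Poisson interval 1149 to 1577). These intervals, like all others from counts here, cover counting error only. Myt1l was found in 92.3% of excitatory and 87.9% of inhibitory neuron-like nuclei, or in 74.8% and 67.6% after each nucleus was thinned to 1500 UMIs, against 4.90% (3.09% thinned) of oligodendrocyte-like nuclei.

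Non-neuronal classes also carried Myt1l UMIs, and there the classes with more Myt1l were, apart from the lowest pair, those with more neuronal transcripts. The summed level of 6 neuronal genes that defined no class (Rbfox3, Snap25, Syt1, Stmn2, Celf4 and Snhg11), as a share of its level in excitatory neuron-like nuclei, was 61.4% in microglia-like, 31.8% in astrocyte-like, 21.6% in OPC-like, 16.7% in fibroblast-like, 3.76% in oligodendrocyte-like and 2.32% in newly formed oligodendrocyte-like nuclei. The Myt1l shares in the same order were 74.3%, 36.8%, 30.1%, 7.80%, 2.66% and 3.09%. Microglia-like nuclei held 777 ± 147 CPM of Myt1l (n = 11), above Pvalb-like nuclei in 11 of 11 animals (adjusted p = 0.00781, exact sign-flip test). Astrocyte-like nuclei held 385 ± 297 CPM (n = 11, range 21.9 to 902), so that single animals spanned from near nothing to a neuronal level. The astrocyte-like level was 896 CPM without upper limits on nuclei, 232 CPM with the stricter marker rule and 237 CPM with classes from clusters. The fibroblast-like level, 81.7 CPM, was 361 CPM without upper limits, 185 CPM with classes from clusters and 170 CPM without doublet removal. The OPC-like level, 315 CPM, was 631 CPM without upper limits.

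Among nuclei without any UMI of those 6 neuronal genes, a split chosen after the levels were seen, OPC-like nuclei held the most Myt1l. In 106 such astrocyte-like nuclei Myt1l stood at 1.98 CPM against 630 CPM in the remaining astrocyte-like nuclei. In 43 such microglia-like nuclei it stood at 76.4 against 820 CPM and was still found in 7 (16.3%, 9 UMIs). Newly formed oligodendrocyte-like nuclei had 14.8 against 60.8 CPM and oligodendrocyte-like nuclei 13.9 against 50.8 CPM. Among 57 fibroblast-like nuclei without neuronal UMIs Myt1l was at 0. In 189 OPC-like nuclei with no neuronal UMI, by contrast, Myt1l stood at 213 CPM and was found in 58 of them (30.7%), against 340 CPM in the other 359. Myt1 went the other way there, with 428 CPM in the nuclei without and 366 CPM in those with neuronal UMIs. These are pooled values of nuclei and not tests.

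**Figure D2:**
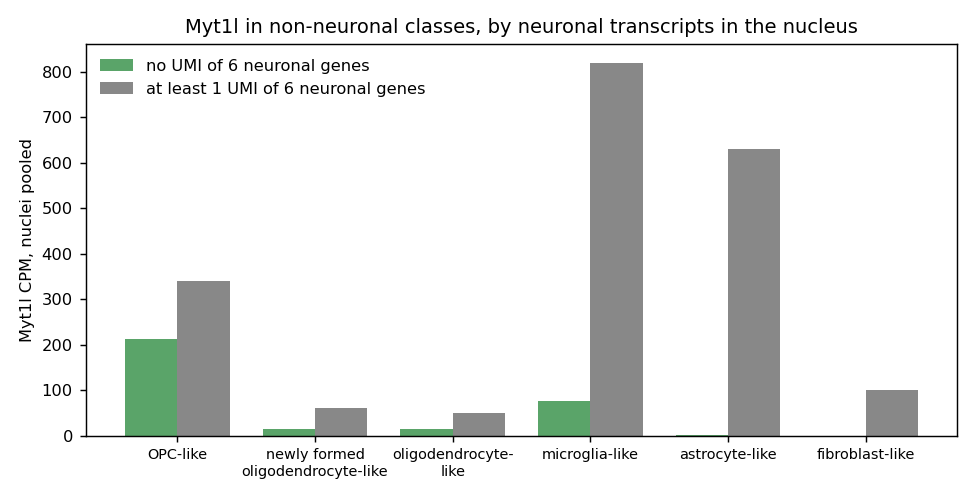
Myt1l level (CPM, pooled nuclei) in non-neuronal classes, split into nuclei with no UMI of the 6 neuronal genes and nuclei with at least 1. Astrocyte-like, microglia-like and fibroblast-like nuclei fall from up to 820 CPM to 76.4 CPM or less without neuronal UMIs, and OPC-like nuclei fall from 340 to 213 CPM.

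Along the oligodendrocyte lineage the 3 genes changed in different directions. This lineage runs from OPCs, dividing progenitors marked by Pdgfra, through newly formed oligodendrocytes, marked by Enpp6 and Bmp4, to oligodendrocytes that make myelin. Myt1 fell at each step, from 360 ± 122 CPM in OPC-like nuclei (range 145 to 622, n = 12) to 38.3 ± 25.7 CPM in newly formed oligodendrocyte-like nuclei (n = 10) and 1.44 ± 2.08 CPM in oligodendrocyte-like nuclei. The first step was 3.57 ± 0.99 and the second 3.97 ± 1.27 on the log2(CPM + 1) scale, each in 10 of 10 animals with both classes (adjusted p = 0.00239 for each, exact sign-flip test). The oligodendrocyte-like level rested on 5.5 UMIs in 1435 nuclei. Without upper limits on nuclei the OPC-like level of Myt1 was 0.362 of the value given here.

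St18 did the opposite. It stood at 48.2 ± 31.1 CPM in OPC-like nuclei (range 0 to 119), 4254 ± 461 CPM in newly formed oligodendrocyte-like nuclei (range 3392 to 5012) and 6562 ± 298 CPM in oligodendrocyte-like nuclei (range 5884 to 7018). The OPC-like level was 25.3 CPM without upper limits on nuclei, 25.1 CPM with classes from clusters and 31.9 CPM with the stricter marker rule. No newly formed oligodendrocyte-like value overlapped an OPC-like one, and the step was 7.03 ± 1.96 on the log2(CPM + 1) scale, in 10 of 10 animals (adjusted p = 0.00239, exact sign-flip test). The further rise of 0.63 ± 0.20 to oligodendrocyte-like nuclei was also seen in 10 of 10 animals (adjusted p = 0.00239, exact sign-flip test). Myt1l dropped by 3.61 ± 1.62 from OPC-like to newly formed oligodendrocyte-like nuclei in 10 of 10 animals (adjusted p = 0.00239, exact test) and then moved up in 5 of 10 and down in 5 (p = 0.74, exact test). The 6 neuronal genes summed to 1800 CPM in OPC-like and 193 CPM in newly formed oligodendrocyte-like nuclei, and their part in the first step was not tested. The newly formed oligodendrocyte-like level of Myt1l, 32.3 ± 23.1 CPM, was 172 CPM without upper limits on nuclei and 85.4 CPM without doublet removal.

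**Figure D3:**
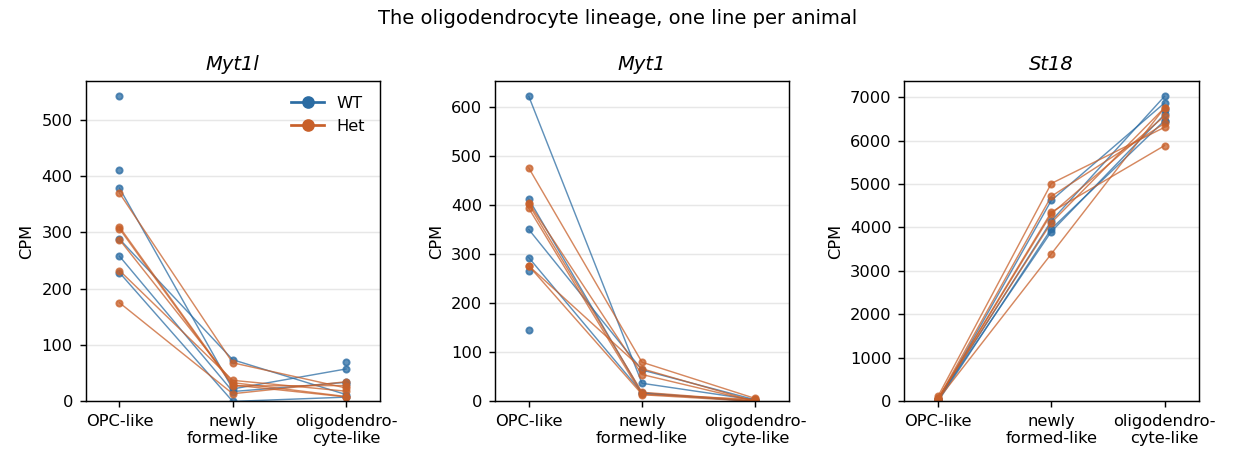
Level of each gene (CPM) in OPC-like, newly formed oligodendrocyte-like and oligodendrocyte-like nuclei, with 1 line per animal. Myt1 falls and St18 rises in every animal that has both neighbouring classes, and Myt1l falls at the first step only.

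Single nuclei showed the same exchange. Of 548 OPC-like nuclei 312 had a Myt1 UMI, 218 a Myt1l UMI and 120 both, while 29 had an St18 UMI and 10 had Myt1 with St18. Of 304 newly formed oligodendrocyte-like nuclei 301 had St18 and 26 had Myt1, 25 of them together with St18. Of 1435 oligodendrocyte-like nuclei 1434 had St18 and 4 had Myt1. Median depths were close, at 2285.5, 2446.5 and 2485 UMIs, and thinning to 1500 UMIs left St18 in 95.5% of newly formed oligodendrocyte-like and 99.2% of oligodendrocyte-like nuclei. Myt1 was then found in 38.4% of OPC-like, 4.62% of newly formed oligodendrocyte-like and 0.131% of oligodendrocyte-like nuclei.

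In pooled OPC-like nuclei St18 was higher where myelin transcripts were found. In 478 OPC-like nuclei with no UMI of Mbp, Mobp, Mag, Mog or Cnp, genes of the myelin sheath, St18 stood at 27.6 CPM. In the 70 with such UMIs it stood at 214 CPM, from 38 UMIs with 11 nuclei positive. St18 also differed by neuronal UMIs, at 113 CPM in the nuclei without and 23.1 CPM in those with them. The 159 nuclei with neither neuronal nor myelin UMIs held 61.0 CPM. These are pooled values of nuclei and not tests. Microglia-like nuclei, which held 113 ± 66.2 CPM of St18, split likewise into 30.6 CPM (276 nuclei) and 401 CPM (78 nuclei).

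Both paralogs had a low level in the neuronal sums, and Myt1 was higher in inhibitory nuclei. It stood at 30.9 ± 6.49 CPM in inhibitory and 16.3 ± 2.19 CPM in excitatory neuron-like nuclei, a difference of 0.87 ± 0.29 on the log2(CPM + 1) scale in 12 of 12 animals (adjusted p = 0.00134, exact sign-flip test). Its share of nuclei with a UMI was 9.73% in inhibitory and 5.29% in excitatory nuclei, or 4.83% and 2.25% after thinning, against 0.286% (0.131% thinned) in oligodendrocyte-like nuclei. Other non-neuronal classes reached neuronal levels, with 37.2 CPM in microglia-like nuclei, 11.3% of which had a Myt1 UMI when pooled (6.01% thinned), and 29.7 CPM in astrocyte-like nuclei, 6.30% of which had one (3.77% thinned). The neuronal shares lie below that of microglia-like nuclei and are not read as above background. The order of St18 depended on how the classes were made. By marker UMIs it stood at 21.3 ± 7.53 CPM in inhibitory and 14.3 ± 4.16 CPM in excitatory nuclei and was higher in inhibitory nuclei in 11 of 12 animals (adjusted p = 0.0156, exact sign-flip test), while with classes from clusters it stood at 13.9 ± 4.23 and 21.9 ± 4.70 CPM, the opposite order. St18 was found in 3.28% of inhibitory and 2.99% of excitatory nuclei, or 1.67% and 1.63% after thinning. Fibroblast-like nuclei had 1.10% (1.10% thinned), astrocyte-like 3.95% (2.48% thinned) and microglia-like nuclei 10.5% (7.16% thinned). These classes give no clean background either, and the neuronal shares are not read as above it. Some neuronal clusters, made without the 3 genes and named here after their values were seen, held more St18. A cluster of 360 nuclei that were mostly other excitatory-like had 156 ± 77.5 CPM (20.3% with a UMI). A cluster of 102 nuclei that were mostly other inhibitory-like had 141 CPM with all nuclei pooled (26.5% with a UMI). Its 4 animals with at least 10 nuclei had 205 ± 44.2 CPM. The lowest neuronal St18 level was that of L6 CT-like nuclei, at 4.05 ± 1.11 CPM, where 1.16% of nuclei had a UMI. It did not differ from the L4/5 IT-like level beyond its spread (adjusted p = 0.174, exact sign-flip test). Without upper limits on nuclei the L6 CT-like level was 7.30 CPM, above the 5.87 CPM of L4/5 IT-like nuclei.

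Among the neighbours in the Myt1 order only OPC-like against newly formed oligodendrocyte-like and other excitatory against L5 NP-like nuclei (10.9 ± 4.16 CPM) differed, 2 of 16 pairs (adjusted p = 0.0234 for both, exact test). In the St18 order 3 of 16 pairs differed, oligodendrocyte-like over newly formed oligodendrocyte-like, the latter over microglia-like and microglia-like over OPC-like nuclei (adjusted p = 0.026 for each, exact test). Immature neurons were too few to test by animal. The 116 neuroblast-like nuclei held 89.4 CPM of Myt1 (95% Poisson interval 61.2 to 126) beside 1009 CPM of Myt1l, and 51 dentate gyrus granule-like nuclei held 66.5 CPM of Myt1 and 114 CPM of St18 (73.0 to 170).

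Over the 17 classes the genes most like each member were named among 10565 genes of at least 20 CPM in their highest class, by Pearson's r of mean log2(CPM + 1). Points share libraries and composition, so r is a description. Closest to Myt1l were Ksr2, a scaffold of Ras signalling (r = 0.992), Grin1, the obligatory NMDA receptor subunit (0.989), Unc79 (0.989) and Unc80 (0.986), parts of the NALCN channel complex, and Srrm3, a neuronal splicing factor (0.986). Closest to Myt1 were Plppr1 (0.870), Plppr5 (0.867), Lhfpl3 (0.859), Slc35f1 (0.839) and Zdhhc2 (0.822), and Lhfpl3 was one of the markers that defined OPC-like nuclei. Close to St18 were the myelin genes Mbp (0.951), Mag (0.947) and Cnp (0.933) with the sorting nexin Snx30 (0.955), and Mag was a marker that defined oligodendrocyte-like nuclei. Among the members themselves r was 0.44 for Myt1l with Myt1, -0.58 for Myt1l with St18 and -0.02 for Myt1 with St18. By rank of the classes (Spearman's rho) the values were 0.12, -0.33 and 0.28 in the same order.

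In Het animals Myt1l was called in 0 fits, and its estimates in neurons lay mostly above those of WT animals. Over all nuclei WT animals had 830, 892 and 946 CPM as lowest, median and highest, and Het animals 927, 994 and 1009 CPM. The groups overlapped through 1 Het animal, and the other 5 lay above every WT animal. The log2 fold change, Het minus WT, was 0.14 ± 0.05 (SE, 95% interval 0.03 to 0.24), which did not pass in edgeR's quasi-likelihood test across 16675 genes (adjusted p = 0.683), a fit in which 0 genes (0%) were called at an adjusted p under 0.05 and a log2 change over 0.2. An exact permutation test of the single value gave p = 0.00433, or 0.260 adjusted over the 60 tests of this kind (two-sided). With fixed weights for the 12 classes present in every animal and 1 fixed weight for all remaining nuclei together, whose own makeup could still differ, the means were 889 ± 62.2 CPM in WT and 986 ± 34.6 CPM in Het animals (exact permutation p = 0.00866, unadjusted).

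The same direction held in most neuronal classes, and none passed. Myt1l could be fitted in 11 neuronal classes and was higher in Het animals in 10, with a median log2 fold change of 0.15 and a range from -0.08 in Pvalb-like to 0.37 in Lamp5-like nuclei. Adjusted p-values over the 14 classes fitted were 0.354 or more (edgeR), and 3 classes had an unadjusted p under 0.05. The classes share animals, so the 10 are not independent. Of the classes fitted, those with a call had percentages called from 0.0243% (L2/3 IT-like) to 0.189% (L6 CT-like) of genes, with 0.0313% in Pvalb-like and 0.127% in L4/5 IT-like nuclei between them, and the others had 0%.

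L6 CT-like nuclei, with the most Myt1l of the cortical classes, had 1175, 1237 and 1437 CPM as lowest, median and highest in WT and 1326, 1474 and 1680 CPM in Het animals. The groups overlapped, with 4 Het animals above the highest WT animal. The log2 fold change was 0.18 ± 0.07 (SE, 95% interval 0.04 to 0.32, edgeR adjusted p = 0.354). In Lamp5-like nuclei the means were 541 ± 118 CPM in WT and 687 ± 62.0 CPM in Het animals (log2 fold change 0.37 ± 0.13, SE, edgeR adjusted p = 0.565). Sums over all excitatory nuclei gave 0.16 ± 0.06 (adjusted p = 0.426, with 0.231% of genes called) and over all inhibitory nuclei 0.18 ± 0.09 (adjusted p = 0.972, with 0.0392% called), both by edgeR.

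**Figure D4:**
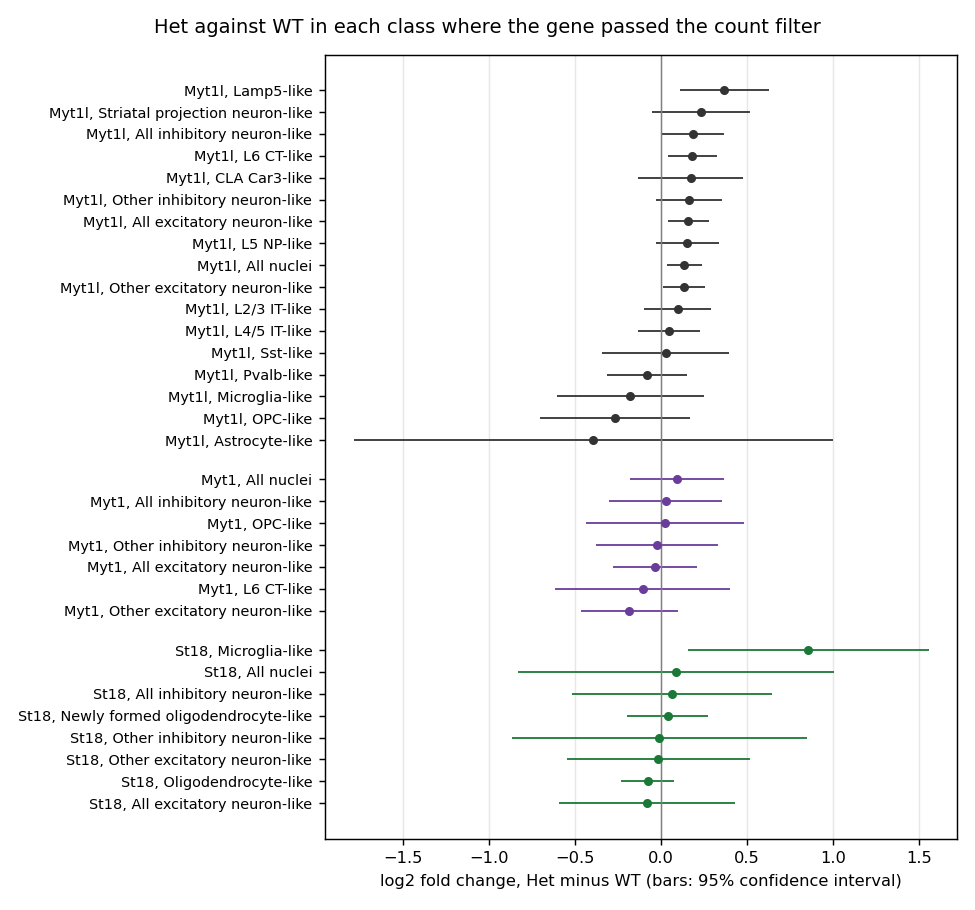
Het against WT log2 fold change of each member in every class and sum where it could be fitted (point, edgeR estimate, bar, 95% interval). Most Myt1l points in neuronal classes lie between 0 and 0.4, the points of Myt1 and St18 in their own main classes lie within 0.1 of 0, and no point passed the adjusted threshold.

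In the non-neuronal classes where it could be fitted Myt1l pointed down. The log2 fold change was -0.39 in astrocyte-like and -0.18 in microglia-like nuclei (edgeR adjusted p = 0.999 and 0.997, 0% of genes called in both). In OPC-like nuclei Myt1l had 351 ± 117 CPM in WT and 280 ± 67.7 CPM in Het animals. The log2 fold change there was -0.27 (95% interval -0.70 to 0.17, edgeR adjusted p = 0.956, 0% of genes called). The 6 neuronal genes summed to 2276 ± 1404 CPM in OPC-like nuclei of WT and 1324 ± 748 CPM in those of Het animals, and their part in this difference was not tested.

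Neither paralog was called in the class where it was most abundant. Myt1 in OPC-like nuclei had 145, 322 and 622 CPM as lowest, median and highest in WT and 276, 398 and 476 CPM in Het animals, with the Het values inside the WT range. The log2 fold change was 0.02 with a 95% interval from -0.44 to 0.48 (edgeR adjusted p = 0.996, 0% of genes called). The exact permutation p was 0.753.

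St18 in oligodendrocyte-like nuclei had 6445, 6654 and 7018 CPM as lowest, median and highest in WT and 5884, 6479 and 6755 CPM in Het animals, and the groups overlapped. The log2 fold change was -0.08 with a 95% interval from -0.23 to 0.08 (edgeR adjusted p = 0.999, 0% of genes called), the narrowest interval of the paralogs. Without upper limits on UMIs and genes per nucleus the estimate turned to 0.13, and without the filter on low counts to 0.00694. In newly formed oligodendrocyte-like nuclei, with 4 WT and 6 Het animals, it was 0.04 (interval -0.20 to 0.27, adjusted p = 0.993, 0.0741% called).

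In neurons, where Myt1l is high, neither paralog was called. Myt1 differed by -0.04 (95% interval -0.28 to 0.21) over all excitatory and by 0.03 (-0.30 to 0.36) over all inhibitory nuclei. St18 differed by -0.08 (-0.59 to 0.43) and 0.06 (-0.51 to 0.64). Of all genes 0.231% were called in all excitatory and 0.0392% in all inhibitory nuclei. By class Myt1 passed the filter on low counts in 4 and St18 in 5 of the 17 classes. Of these 9 fits 0 gave a call (edgeR, 0 with unadjusted p under 0.05 for Myt1 and 1 for St18). In the classes of these fits 0% to 0.189% of all genes were called. Myt1l, Myt1 and St18 together were called in 0 fits. DESeq2 called them in 0 fits as well, but gave no adjusted p for Myt1 and St18 in all excitatory and other excitatory nuclei or for Myt1 in L6 CT-like nuclei, so it adds nothing there.

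**Figure D5:**
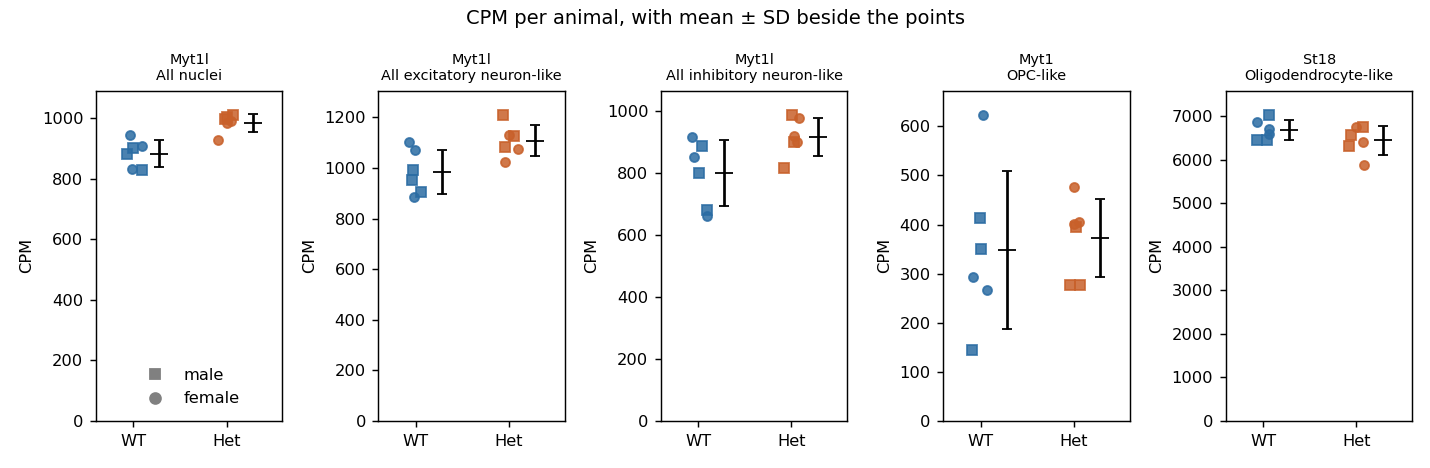
Level per animal (CPM) of Myt1l in all nuclei and in the 2 neuronal sums, of Myt1 in OPC-like and of St18 in oligodendrocyte-like nuclei. WT and Het stand side by side, with males and females marked and the mean and SD of each genotype. Myt1 and St18 are not shown in the neuronal sums. Myt1l runs higher in Het animals in the neuronal sums, and the WT and Het points of Myt1 in OPC-like and of St18 in oligodendrocyte-like nuclei are intermixed.

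The 1 unadjusted p under 0.05 for St18 came from microglia-like nuclei, with 78.2 ± 31.6 CPM in 6 WT and 155 ± 75.2 CPM in 5 Het animals (log2 fold change 0.86, interval 0.16 to 1.55, edgeR adjusted p = 0.997). The estimate turned to -0.23 without upper limits on nuclei and was 0.38 with classes from clusters. The 5 myelin genes summed there to 197 ± 157 CPM in WT and 310 ± 145 CPM in Het animals. In OPC-like nuclei, where St18 did not pass the filter, it had 0, 28.4 and 58.0 CPM as lowest, median and highest in WT (14 UMIs in all) and 42.5, 55.8 and 119 CPM in Het animals (56.6 UMIs). The exact permutation p was 0.0281, or 0.273 adjusted over the 60 tests, and the myelin genes stood at 64.7 ± 39.2 and 97.7 ± 46.3 CPM. The part of the myelin transcripts in both differences was not tested. Both L5 NP-like and L4/5 IT-like nuclei pointed the other way, with St18 at 15.1 ± 11.9 CPM in WT and 3.94 ± 2.75 CPM in Het animals in the former (exact permutation p = 0.0325), and with means of 10.6 and 4.56 CPM (ranges 4.23 to 24.1 and 2.07 to 8.30 CPM) in the latter (exact permutation p = 0.0628). It did not pass the filter in either, with adjusted p-values of 0.273 and 0.29 over the 60 tests. Over all nuclei St18 spread from 99.2 to 532 CPM between animals, while oligodendrocyte-like nuclei made up 1.39% to 7.74% of the nuclei of a WT animal and 2.58% to 7.51% of those of a Het animal.

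Males and females were set against each other through the interaction of sex and genotype in 18 fits. It was called for 0 members (edgeR, 0 with unadjusted p under 0.05, the lowest being 0.0701 for Myt1l in L6 CT-like nuclei). The interaction was called for 0.0486% of genes in L2/3 IT-like and 0.00922% in other excitatory nuclei, and for 0% in the other fits.

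Genes that act with the family were read from 4 lists, in the 17 classes and the 3 sums. Of 16 corepressor partners, among them Sin3a and Sin3b, scaffolds of a histone deacetylase complex, Hdac1 and Hdac2, deacetylases, and Ncor1, a nuclear receptor corepressor, 0 were called in 151 tests of a gene in a class or sum (11 with unadjusted p under 0.05, edgeR). Of 18 Notch pathway genes, a pathway that Myt1 family members are known to repress, 0 were called in 98 tests by edgeR (10 unadjusted), while Numbl, a Notch inhibitor, was called in all excitatory nuclei without the filter on low counts and in other excitatory nuclei by DESeq2. Of 13 proneural and neuronal transcription factors 0 were called in 94 tests (3 unadjusted), and of 12 oligodendrocyte lineage transcription factors 0 in 55 tests (2 unadjusted). Over all genes in the same 20 fits 0.0545% of 102768 tests were called and 6.07% had an unadjusted p under 0.05, beside 7.28%, 10.2%, 3.19% and 3.64% in the lists. Over all excitatory nuclei the list medians, in the same order, were 0.07, 0.07, -0.06 and 0.12 on the log2 scale, beside -0.01 over all genes tested.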

How the data were processed

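Single-nucleus RNA of 12 mouse cortices was barcoded with the Scale Biosciences kit, and the animals were processed in parallel. Reads were mapped by the authors to mm10, with ScaleRna, and 1 matrix per animal was deposited. The deposited values are each an estimated count of UMIs for a gene and barcode, made by the authors with ScaleRna. Of these, 92.6% are whole, since UMIs shared by genes were split into fractions. In the barcodes within the limits, 0.296% of Myt1l, 0.594% of Myt1 and 0.464% of St18 UMIs lay in such fractions. The deposited feature and barcode lists hold names only. Totals were 23429386 to 59958572 UMIs per animal. Whether counting used strand, and whether doublets were removed before deposit, is not given in the sources used here. Myt1l overlaps 2 genes of the other strand, Gm20208 (146 UMIs in the barcodes within the limits) and C630031E19Rik (204 UMIs).

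As in the study, nuclei had to hold 800 to 6000 UMIs and 300 to 3000 genes, with no more than 1% from mitochondria and log genes at 0.9 or more of log UMIs. These limits kept 34862 barcodes, and 78722 would have been kept without the upper limits, so nuclei rich in UMIs were left out. The study states more nuclei than the 78743 barcodes deposited, so its set was not reproduced. Of the 34862, the 5% of each animal with the highest Scrublet score (scanpy 1.11.5) were removed, 1744 in all. A nucleus took the class whose markers summed to the highest score of log2(UMIs + 1) over the expected UMIs + 1, with a minimum and a margin set after detection of the markers was seen. The sums of a class were used where an animal had at least 10 nuclei, and a class where each genotype had at least 3 animals. Sums were rounded and tested with edgeR 4.0.16 (TMM, filterByExpr, quasi-likelihood test, robust), Het against WT without covariates, over all genes, and called at a Benjamini-Hochberg adjusted p under 0.05 with an absolute log2 fold change over 0.2. DESeq2 1.42.0 was an alternative. Levels of 1 gene in 2 classes were compared by exact sign-flip tests on log2(CPM + 1), and single values between genotypes by exact two-sided permutation tests, whose smallest p for 6 against 6 animals is 0.00216. P-values measure the spread between these animals.

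The members, lists and class markers were chosen with earlier results of these data known. Named genes are the members, the 5 genes most like each, list genes called in a class and markers needed to check a class, and 1 gene that this rule names is not reported here. The neuronal and myelin splits, the contrasts along the lineage and the Prox1 cluster were chosen after the levels were seen. Gene positions and transcripts are from GENCODE M21 for mm10. The edgeR step was tested on simulated counts. Of genes simulated at 2-fold it recovered 78% in OPC-like nuclei (1927 genes tested), 72% in oligodendrocyte-like nuclei (4475 genes) and 89% in all excitatory nuclei (12963 genes), and of those at 1.5-fold 36%, 20% and 59%.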

Additional observations from a re-analysis of the deposited data

Results flagged for a closer look

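Of 64 groups of animals examined for a single value far from the rest, 1 stood out, where chance gives about 1 in 20. In all nuclei together, the Het female replicate 1 had 927 CPM of Myt1l, and the other 5 Het animals had 984 to 1009 CPM. Its gap to the nearest animal was 0.688 of the range of the group, above the limit of 0.625. It is the animal through which the WT and Het groups overlap in that sum.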

How the results depend on the processing

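No member was called in any of the 373 (Myt1l), 180 (Myt1) and 191 (St18) alternative fits, where the lowest adjusted p-values were 0.0668, 0.618 and 0.429. No adjusted p was therefore under 0.05. Myt1l in all nuclei and in all excitatory nuclei also stayed under the log2 fold change of 0.2 that a call needs, so those fits could not give one. The log2 fold changes kept their direction in 261 of the alternatives other than leaving out an animal and turned in 27, most of them near 0, and the cause was not tested. The 261 include the sums over all nuclei under the stricter marker rule and with classes from clusters. No class enters those sums, so their values could not change. Without the filter on low counts St18 turned to 0.000182 in other excitatory, 0.0231 in other inhibitory and 0.00694 in oligodendrocyte-like nuclei, and Myt1 to 0.00875 in other inhibitory nuclei. Without doublet removal Myt1 turned to 0.0236 in all excitatory and St18 to -0.36 in all inhibitory nuclei. Without upper limits on UMIs and genes St18 turned to 0.38 in other inhibitory, -0.23 in microglia-like and 0.13 in oligodendrocyte-like nuclei, Myt1l to 0.11 in microglia-like, 0.0969 in Pvalb-like and -0.00694 in Sst-like nuclei, and Myt1 to -5.36e-05 in all inhibitory nuclei. With the stricter marker rule Myt1 turned to -0.0279 in all inhibitory and -0.00714 in OPC-like nuclei, Myt1l to -0.0700 in Car3-like, -0.0411 in L4/5 IT-like and 0.0553 in Pvalb-like nuclei, and St18 to 0.44 in other inhibitory nuclei. With classes from clusters Myt1 turned to 0.17 in other inhibitory, 0.0752 in L6 CT-like and -0.0940 in OPC-like nuclei, Myt1l to -0.0573 in Car3-like and 0.00918 in Pvalb-like nuclei, and St18 to 0.0905 in other excitatory and 0.58 in other inhibitory nuclei. With sex as a covariate Myt1 in OPC-like nuclei turned to -0.00541.

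Leaving out 1 animal at a time kept Myt1l at 0.11 to 0.15 in all nuclei, 0.13 to 0.19 in all excitatory and 0.13 to 0.22 in all inhibitory nuclei, and St18 in oligodendrocyte-like nuclei at -0.09 to -0.04. Directions turned for Myt1 in OPC-like (-0.10 to 0.27), all excitatory (-0.0987 to 0.0192), all inhibitory (-0.0849 to 0.17), other inhibitory (-0.11 to 0.11) and L6 CT-like nuclei (-0.22 to 0.0584). They turned for St18 in all nuclei (-0.0861 to 0.33), all excitatory (-0.25 to 0.0707), all inhibitory (-0.17 to 0.23), other excitatory (-0.27 to 0.11), other inhibitory (-0.28 to 0.21) and newly formed oligodendrocyte-like nuclei (-0.00482 to 0.0998). They turned for Myt1l in astrocyte-like (-0.85 to 0.0643), Pvalb-like (-0.14 to 0.00927) and Sst-like nuclei (-0.0701 to 0.0944). None of these gave a call or an adjusted p under 0.05.

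Some levels moved by more than 1 SD, and the cause was not tested. Without upper limits on nuclei, when 74784 were kept, Myt1l stood at 631 CPM in OPC-like and 173 CPM in oligodendrocyte-like nuclei. Myt1 then stood at 130 CPM in OPC-like and 24.2 CPM in all inhibitory nuclei. St18 stood at 5497 CPM in oligodendrocyte-like and 3736 CPM in newly formed oligodendrocyte-like nuclei. Over all nuclei St18 was at 91.1 CPM, against 304 CPM with the limits. Without doublet removal Myt1l stood at 104 CPM and St18 at 5927 CPM in oligodendrocyte-like nuclei. With classes from clusters Myt1 stood at 67.7 CPM and St18 at 3792 CPM in newly formed oligodendrocyte-like nuclei, and St18 at 313 CPM in microglia-like, 57.4 CPM in other excitatory, 21.9 CPM in all excitatory and 13.9 CPM in all inhibitory nuclei, so that its neuronal order turned round. Over all classes and sums, levels of St18 moved by over 1.5 times in 11 without upper limits, 9 with classes from clusters, 6 with the stricter rule and 1 without doublet removal, those of Myt1 in 6, 6, 2 and 1 and those of Myt1l in 5, 4, 1 and 3. Of the list genes, Numbl, a Notch inhibitor, was called once without the filter (1 call, all excitatory nuclei, log2 fold change 0.34, adjusted p = 0.0297) and once by DESeq2 (1 call, other excitatory nuclei, 0.41, adjusted p = 0.0471), against 0.32 and 0.40 with adjusted p-values of 0.216 and 0.217 by edgeR with the filter. Over the 20 fits DESeq2 gave 189 calls and edgeR 56. A gene counts once for each fit that calls it, and the sums contain nuclei of the classes.

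The replicate numbers did not pair the animals (correlations of same-numbered WT and Het animals from -0.477 to 0.054, with 1 of 12 animals best matched to its own number). With sex and number as a replicate block 0 members were called, and the 20 fits gave 46 calls. The log2 fold changes of Myt1l were then 0.14 in all nuclei and 0.16 in all excitatory nuclei. They were 0.07 for Myt1 in OPC-like and -0.08 for St18 in oligodendrocyte-like nuclei.

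Depth limits the paralogs in neurons, where Myt1 gave 811 UMIs over 14504 excitatory nuclei. Marker rules, not an annotation, defined the classes.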

Other observations

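A cluster of 826 nuclei (37 to 126 per animal, all 12 animals), found without the 3 family genes and singled out after its values were seen, carried both paralogs. Its leading genes include Prox1, Glis3 and Dsp, 3 of the markers of dentate gyrus granule cells, but most of its nuclei met no class rule, and it is left without a name. St18 stood there at 271 ± 63.0 CPM (SD, n = 12, range 130 to 374) and was found in 431 nuclei (52.2%). Myt1 stood at 72.2 ± 20.3 CPM and was found in 160 nuclei (19.4%), and 85 nuclei had both. Myt1l was at a neuronal level, 859 ± 85.5 CPM, and 5 myelin genes summed to 79.8 CPM.

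In this cluster both paralogs had lower means in Het than in WT animals. St18 had 306 ± 48.7 CPM in 6 WT and 237 ± 59.5 CPM in 6 Het animals (exact permutation p = 0.0498, adjusted over 3 genes 0.0942), Myt1 83.1 ± 10.6 and 61.2 ± 22.5 CPM (exact p = 0.0628, adjusted 0.0942) and Myt1l 843 and 875 CPM (exact p = 0.545). None passes the correction, which covers the 3 genes but not the choice of 1 among 45 clusters. The cluster was picked by its dentate gyrus markers, after its St18 level over all animals had been seen.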
